A study of Mus musculus with 12 samples.

Results

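Alternative transcript ends were described in RNA sequencing of mouse colon. The members are the end events of genes for which the deposited event table lists at least 2 different transcript ends: 18294 end patterns of 6712 genes, out of 33959 end patterns of 22377 genes in the whole series. Of the 6712 genes, 3951 had 2 end patterns, 1571 had 3, 672 had 4, 296 had 5 and 222 had 6 or more, up to 12. An end pattern in the table is the inner boundary of the last exon, and 99.0% of the listed end rows equalled the last exon of the same transcript in the GENCODE annotation. The members are therefore alternative last exons. Shorter and longer forms of the same last exon share a pattern and were not separated. Where last exons of a gene overlapped on the genome they were merged into 1 end region, which left 16481 regions. After merging, 5926 genes kept 2 or more regions and 786 had 1.

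Each of the 3 groups, control, DSS and FGF1, had 4 colon libraries. Dextran sulfate sodium (DSS) damages the colonic epithelium and is a common way to produce colitis in mice. The growth factor FGF1 was supplied as recombinant protein to mice with bowel inflammation, as far as the series' design text tells. The labels leave out strain, age, genotype, dose and duration, and leave out whether DSS was part of the FGF1 treatment. They do not say that the libraries of a group came from separate animals, so p-values measure the spread between these libraries. The question for the ends is whether the choice between a proximal and a distal last exon differed between the 3 groups. All values are FPKM (fragments scaled to transcript length and library size) assigned to transcripts by the authors. The files hold no read counts, so the depth behind a value is unknown.

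The 3' end of a messenger RNA forms when the nascent transcript is cut downstream of a poly(A) signal, most often the hexamer AATAAA or its variant ATTAAA in DNA letters, and a poly(A) tail is added. The cleavage and polyadenylation specificity factor (CPSF) binds the hexamer, and the cleavage stimulation factor (CstF) binds a GU-rich stretch after the cut. When a gene carries more than 1 usable signal, a proximal end can lie in an exon or intron upstream of the distal end, and the resulting proteins can differ at their C-terminus. The textbook example is Ighm, the IgM heavy chain, whose proximal end gives the secreted antibody and whose distal end gives the membrane form of the B cell receptor.

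The last 30 bases of annotated transcripts at both ends of 8 genes are shown, because these genes carry the results below or stand for a class of end. Sequences are from the GENCODE vM21 transcripts on GRCm38, written 5′ to 3′ on the transcript's strand, with the poly(A) signal hexamer nearest the end in capitals. Gna13 encodes the alpha subunit of a heterotrimeric G protein, and its ends lie at chr11:109380446-109380475 and chr11:109401340-109401369 on the plus strand.
Gna13 proximal: tcacctgAATAAAtgtcattttaaattcta
Gna13 distal: tactgacatttAATAAAcatttataaatga
Sin3b encodes a scaffold of histone deacetylase corepressor complexes, and its ends lie at chr8:72739877-72739906 and chr8:72758172-72758201 on the plus strand.
Sin3b proximal: cagtAATAAAatgatttggcatttctgttt
Sin3b distal: atttgcacATTAAAgttaaatattgatgcc
Wdcp encodes a WD repeat and coiled-coil protein, and its ends lie at chr12:4849314-4849343 and chr12:4860014-4860043 on the plus strand. The annotation tags the proximal transcript as one whose end was not found, so the last bases shown for it may not be its true end.
Wdcp proximal: tattatctaaAATAAAagttattcattcat
Wdcp distal: gcttctttatAATAAAtatgattccagctg
Sh3glb1 encodes endophilin B1, a membrane-bending protein, and its ends lie at chr3:144686911-144686940 and chr3:144683678-144683707 on the minus strand.
Sh3glb1 proximal: tttttcactAATAAActgctttgaagagca
Sh3glb1 distal: ttcaagttttaatAATAAActaaaccacac
Ighm ends at chr12:113420741-113420770 (secreted form) and chr12:113418558-113418587 (membrane form) on the minus strand.
Ighm proximal: tagaAATAAAaaaaatccattcaaacgtca
Ighm distal: tggaAATAAAtactttatcttgtgaactca
Tmpo encodes lamina-associated polypeptide 2, of which the alpha form ends at the proximal last exon, and its ends lie at chr10:91160417-91160446 and chr10:91147571-91147600 on the minus strand.
Tmpo proximal: tacaaattcAATAAAgttgttaaatttgaa
Tmpo distal: ataattcaatAATAAAgtaattaacctcta
Tk1 encodes the cytosolic thymidine kinase of the nucleotide salvage pathway, and its ends lie at chr11:117822458-117822487 and chr11:117815526-117815555 on the minus strand.
Tk1 proximal: actgctAATAAAtacagctacatttttaac
Tk1 distal: atgaacaatATTAAAgtttactactaatga
Actg1 encodes cytoplasmic gamma actin, and its ends lie at chr11:120347259-120347288 and chr11:120345691-120345720 on the minus strand. Its proximal end belongs to a transcript annotated with a retained intron, and neither hexamer stands in the 30 bases shown.
Actg1 proximal: tgtatgcatctgggcgcaccactggcattg
Actg1 distal: tgtaaagaAATAAAagtgctgcagtaactg

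The distal last exon carried most of the signal in most genes. Use of an end region is the summed FPKM of its transcripts as a percentage of the summed FPKM over all end regions of the gene in the same library. Of the 5926 genes with separate end regions, 3364 reached 1 FPKM over their ends in all 12 libraries. In 2861 of these (85.05%) the most used region was the most distal, and in 301 (8.95%) it was the most proximal. The median use of the leading region was 94.5%, and in 1596 genes (47.4%) it was at least 95%. Among the 1774 of these genes with exactly 2 regions, the distal region led in 1523 (85.9%).

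For the comparisons, the 2 most used regions of each gene were paired and called proximal and distal by their order along the gene's strand. A pair was tested where the gene reached 1 FPKM over its ends in all 12 libraries and the lesser region had a mean use of at least 5%, which 1588 of the 6712 genes did. In these pairs the median distal use was 81.5% (quartiles 61.7 and 89.2%), and 163 pairs lay between 40 and 60%. The ends of a pair were a median of 5532 bases apart, from 22 to 562283.

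**Figure D1:**
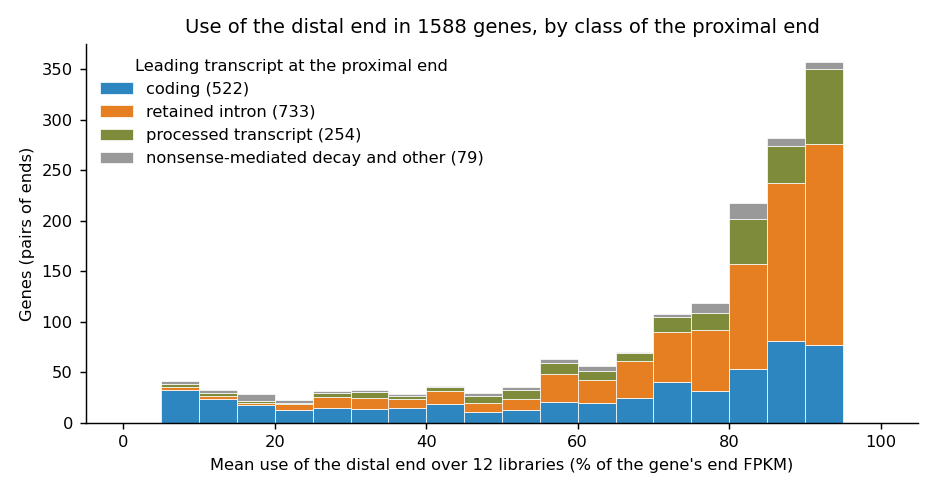
Number of genes by the mean use of the distal end over 12 libraries (percent of the gene's end FPKM, bins of 5 points), stacked by the annotation class of the leading transcript at the proximal end. The bars rise toward the right, with a median of 81.5% distal use, and nothing lies below 5% or above 95% because of the minimum use.

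Proximal and distal ends differed in annotation. The leading transcript at the proximal end was annotated as a retained intron in 733 of 1588 pairs (46.2%), as protein coding in 522 (32.9%), as a processed transcript in 254 (15.99%) and as a target of nonsense-mediated decay in 46 (2.90%). At the distal end it was protein coding in 1268 pairs (79.9%) and a retained intron in 134 (8.44%). The proximal last exon had a median length of 448 bases and the distal one of 867. In 430 pairs both ends were coding, and of the 359 of these with annotated stop codons at both ends, 338 used different stop codons. An annotated transcript end is the end of a transcript model and need not be a cleavage site: the annotation marks the end of the model as not found for 111 proximal ends (6.99%) and 21 distal ends (1.33%).

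Poly(A) signals followed the same division. AATAAA or ATTAAA was searched on the transcript's strand in the last 40 bases of the leading annotated transcript. Of the distal ends, 1089 of 1579 (69.0%) held a hexamer, against 454 of 1587 proximal ends (28.6%) and 32.6% of all 141704 annotated transcripts searched in the same window. The share was 73.4% at coding distal ends and 50.8% at coding proximal ends, and it was 13.4% at proximal ends of retained-intron transcripts. Both ends held a hexamer in 310 of the 1578 pairs with both sequences (19.6%). A hexamer in this window is a match of letters and says nothing on whether the signal was used.

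**Figure D2:**
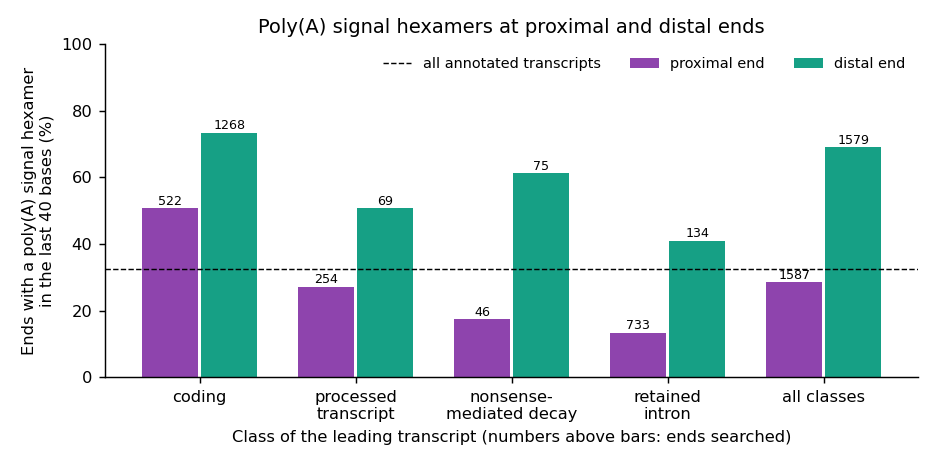
Percentage of proximal and distal ends with AATAAA or ATTAAA in the last 40 bases, by annotation class of the leading transcript; numbers above the bars are ends searched and the dashed line is the share in all annotated transcripts (32.6%). Distal bars stand above proximal bars in each class, and the lowest bar is the proximal retained-intron class at 13.4%.

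The precision of end use varied widely between genes. The within-group SD of distal use had a median of 7.09 percentage points over the 1588 pairs, with a 10th percentile of 3.05 and a 90th of 16.5. It was 9.34 points in the 529 genes with the lowest end FPKM (median 3.21 FPKM), 6.75 in the next 530 and 5.24 in the 529 with the highest (median 19.1 FPKM). In 157 pairs (9.89%) the libraries of at least 1 group spanned over 50 points. In 315 pairs (19.8%) an end was listed at 0 in at least 1 library.

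Of the most abundant genes with a tested pair, 5 are given here, chosen after their values were seen. Actg1 led them with a mean of 854 FPKM over its ends. Distal use of Actg1 was 93.6, 94.7, 94.0 and 93.6% in control, 93.6, 92.4, 96.2 and 95.3% in DSS and 94.9, 94.2, 93.7 and 94.6% in FGF1 libraries. The 12 values lay between 92.4 and 96.2%, and the groups overlapped. Gpa33, an intestinal epithelial surface glycoprotein, used its distal end at 72.6 ± 3.68% (SD, n = 4) in the control group, 72.5 ± 4.03% with DSS and 73.9 ± 2.09% with FGF1. Its proximal end belongs to a noncoding processed transcript, which took a mean of 26.6% of the FPKM of the gene's ends. Rrbp1, the ribosome-binding protein 1 of secretory cells, used its distal coding end at 59.9 ± 2.14%, 61.1 ± 3.93% and 60.2 ± 2.86% in the same order. For Tmc4, a transmembrane channel-like protein, the values were 64.7 ± 2.15%, 67.9 ± 5.04% and 63.4 ± 4.40%, and both its ends belong to retained-intron transcripts. Hnrnpa2b1, an RNA-binding protein that acts in splicing, went the other way from most genes: its proximal coding end took a mean of 89.6%, and distal use was 8.52 ± 0.814%, 7.65 ± 1.88% and 7.58 ± 1.25%. In these 5 genes the groups overlapped in every comparison, and the smallest adjusted p was 0.872, for Tmc4 between FGF1 and DSS (limma).

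In some less abundant genes, distal use differed widely between libraries of the same group. The 4 with the largest within-group SD among genes with a mean of at least 10 FPKM, also chosen after their values were seen, were Srebf1, Alas1, Yif1a and Dlst. Distal use of Srebf1, a transcription factor of lipid synthesis, was 0, 77.8, 66.4 and 71.9% in control, 0, 74.4, 83.6 and 0% in DSS and 0, 63.8, 63.7 and 73.1% in FGF1 libraries. Libraries at 0 occurred in each group. In these (control 1, DSS 1, DSS 4 and FGF1 1) the Srebf1 proximal end was at 1.62, 2.23, 1.515 and 2.87 FPKM. The other libraries had 1.00 to 3.48. The sum of its ends was 3.71, 5.98, 3.74 and 6.30 FPKM, against 10.3 to 20.3 in the others. The values of 0 thus came with a lower end sum and without a rise of the proximal end. Alas1, the first enzyme of heme synthesis, was at 94.6, 35.7, 34.3 and 26.6% in control, 32.9, 36.6, 30.9 and 98.0% in DSS and 28.5, 95.1, 61.8 and 90.8% in FGF1. Yif1a, a membrane protein of transport from the endoplasmic reticulum to the Golgi, ranged from 10.9 to 100% over the 12 libraries. In Srebf1, Alas1 and Yif1a the groups overlapped in every comparison. When all listed transcripts of a gene were placed by their annotated last exon, an alternative added after seeing the data, the DSS minus control log2 ratio difference of Srebf1 went from -1.11 to -0.09.

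**Figure D3:**
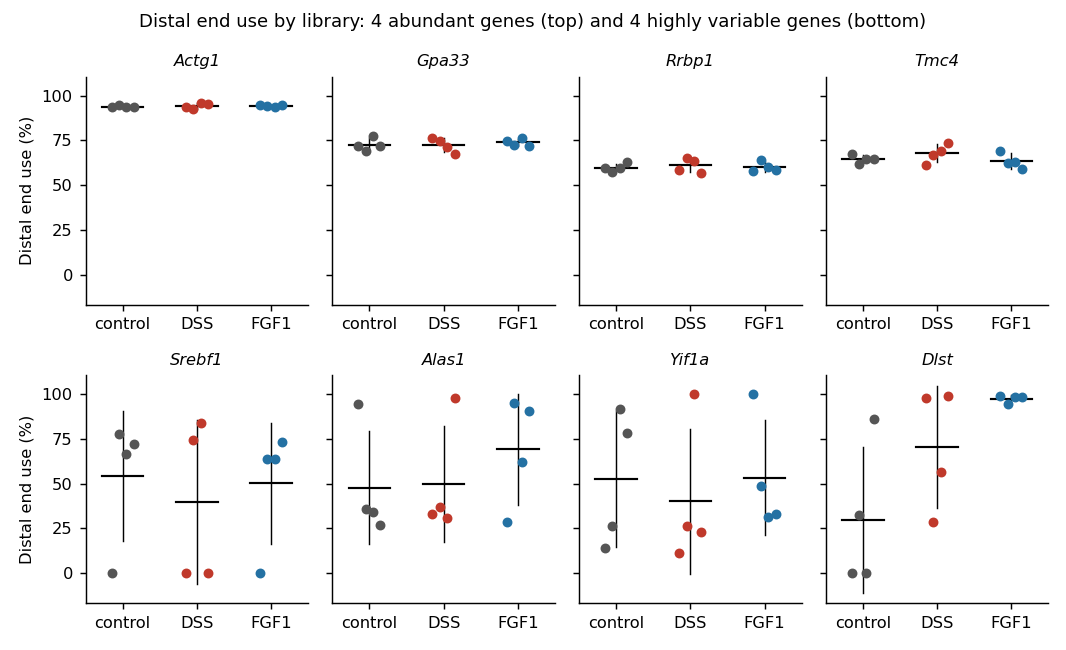
Distal end use (percent of the gene's end FPKM) in each library by group for 4 abundant genes (top) and 4 highly variable genes (bottom); horizontal lines are means and vertical lines are ± 1 SD (n = 4 libraries). Actg1 stays between 92.4 and 96.2%, while Srebf1 falls to 0% in 4 libraries and lies between 63.7 and 83.6% in the others.

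No gene passed the test for a shift between its ends. The ratio of distal to proximal FPKM was tested as log2((distal + 0.5)/(proximal + 0.5)) with limma over all 12 libraries and 1588 pairs, and a call needed a Benjamini-Hochberg adjusted p under 0.05. Between DSS and control 0 pairs were called (0% of those tested), and the smallest adjusted p was 0.122. Between FGF1 and DSS 0 were called with a smallest adjusted p of 0.195, and between FGF1 and control 0 with 0.394. At an unadjusted p under 0.05 there were 165 pairs between DSS and control (10.4%), 68 with higher and 97 with lower distal use in DSS. FGF1 and DSS gave 127 such pairs (8%), 68 higher and 59 lower in FGF1, and FGF1 and control 93 (5.86%), 45 higher and 48 lower. Distal use did not overlap between the 4 and 4 libraries in 81 pairs (5.1%) for DSS and control, 61 (3.84%) for FGF1 and DSS and 56 (3.53%) for FGF1 and control.

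The test of single end sites, each against the other ends of its gene, covered 3966 sites of 2108 genes and also gave 0 calls in the 3 comparisons. Its smallest adjusted p was 0.0981 for DSS and control, 0.357 for FGF1 and DSS and 0.123 for FGF1 and control. Unadjusted p was under 0.05 for 359 sites (9.05%), 294 (7.41%) and 214 (5.4%) in that order.

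The intervals bounded large shifts in most pairs and small ones in few. The 95% interval of the log2 ratio difference between DSS and control had a median half-width of 0.80. It lay within 1 log2 unit of 0 for 35.0% of the pairs and within 2 units for 85.1%. For FGF1 and DSS the shares were 37.97% and 85.6%, and for FGF1 and control 40.2% and 86.6%. The absence of calls therefore does not show that ends were used alike.

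At the level of whole genes, differences passed the test between DSS and control, in a fit with a smaller standard error than that of the end pairs (median 0.17 against 0.37, log2). Estimates beyond 1 log2 unit were no rarer among the end pairs, with 157 of 1588 pairs and 880 of 12578 genes. A larger standard error alone widens the spread of estimates, so these counts do not compare the size of the changes. Summed over its listed transcripts, the gene level was called in 1549 of 12578 genes (12.3%) between DSS and control, 280 higher (2.23%) and 1269 lower (10.1%) in DSS. The balance moved with the scaling: with median-of-ratios scaling 1608 genes were called, 550 higher and 1058 lower. At an unadjusted p under 0.05 the share was 27.7%. It was called in 7 genes (0.0557%) between FGF1 and DSS and in 10 (0.0795%) between FGF1 and control. Among the 1588 genes of the end comparison, 93 were called at gene level between DSS and control, 33 higher and 60 lower. Markers of several other cell types in the bulk tissue were lower in DSS, against 10.1% of all genes. These were 9 of 9 tested fibroblast markers, 8 of 8 endothelial, 5 of 7 macrophage and 4 of 9 smooth muscle markers. Of the enteric neuron and glia markers 1 of 8 was lower, near the share of all genes. Of 12 epithelial markers 1 was higher and 1 lower, against 2.23% higher and 10.1% lower of all genes. The mean log2(FPKM + 1) of the fibroblast list ranged from 3.88 to 4.50 in control, 1.12 to 2.69 in DSS and 2.60 to 3.85 in FGF1, and that of the epithelial list from 8.74 to 9.10, 8.85 to 9.43 and 8.94 to 9.29. In bulk RNA fewer cells of a type and less RNA per cell cannot be told apart, and the part of cell composition in end use was not tested. Libraries DSS 3 and DSS 4 had the fewest member end sites above 0, 12949 and 13404 against 13954 to 14822 in the other libraries. They also had more tested pairs with the proximal end listed at 0, 103 and 94 against 45 to 65.

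The 6 pairs with the smallest p between DSS and control were those of Pigv, Gramd1a, Wdcp, Tcaf1, Nxn and Gna13, and all 6 had lower distal use in DSS. None passed the adjusted threshold, so they are given as values. Pigv encodes a mannosyltransferase of GPI anchor synthesis, and its proximal end belongs to a processed transcript. Distal use of Pigv was 99.1, 100, 100 and 99.0% in control, 75.7, 80.5, 87.5 and 90.2% in DSS and 99.3, 91.9, 98.9 and 98.0% in FGF1 libraries. Every DSS library lay below every control and every FGF1 library. The DSS minus control difference of the log2 ratio was -1.55 ± 0.283 (SE, adjusted p = 0.122, limma), and the FGF1 minus DSS difference was 1.23 ± 0.283 (adjusted p = 0.215). Pigv was called between DSS and control when DSS 3 and DSS 4 were left out (-1.94, adjusted p = 0.04). The summed level of the ends was 5.28 ± 0.497 FPKM in control and 5.79 ± 0.532 in DSS. The proximal Pigv end was at 0.0459, 0, 0 and 0.0569 FPKM in control, under the constant of 0.5, and at 0.573 to 1.59 in DSS.

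Gna13 was the most abundant of the 6, and both its ends are coding and hold AATAAA in the sequences above. Distal use of Gna13 was 76.8, 75.7, 72.3 and 79.3% in control, 63.2, 60.4, 47.9 and 52.1% in DSS and 73.9, 74.8, 78.4 and 65.8% in FGF1 libraries. The DSS libraries lay below all others. Mean distal use was 76.0 ± 2.89% in control and 55.9 ± 7.13% in DSS (SD, n = 4), a difference of the log2 ratio of -1.25 ± 0.269 (SE, adjusted p = 0.127, limma). The gene level of Gna13 was higher in DSS by 0.53 on the log2 scale (adjusted p = 0.0276, limma).

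Wdcp was the pair with the largest difference of the 6 but a low level, 1.59 ± 0.498 FPKM over its ends in control. Its distal use was 56.8, 38.5, 44.4 and 79.6% in control, 7.29, 17.1, 16.5 and 12.3% in DSS and 37.7, 51.0, 21.9 and 26.8% in FGF1 libraries. The DSS values did not overlap with either other group. The estimate was -1.62 ± 0.323 (SE, adjusted p = 0.122, limma). Tcaf1, a partner of TRP channels, used its distal end at 97.2 ± 2.60% in control, 87.1 ± 3.21% in DSS and 95.3 ± 3.76% in FGF1, with DSS below both other groups in all libraries. The gene level of Tcaf1 was lower in DSS by 0.64 (log2, adjusted p = 0.0447, limma). Its proximal end was at 0, 0, 0.444 and 0 FPKM in control and 0.245 to 0.611 in DSS, near or under the constant of 0.5.

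In Gramd1a and Nxn the log2 ratio and the percentage gave different pictures. Gramd1a, a cholesterol transfer protein of the endoplasmic reticulum, used its distal end at 93.9 ± 2.01% in control and 89.5 ± 4.00% in DSS, and the groups overlapped. The sum of its ends fell from 8.05 ± 1.25 to 3.20 ± 0.982 FPKM, and its gene level was lower in DSS (adjusted p = 0.00658, limma). The log2 ratio difference of Gramd1a was -1.15 (adjusted p = 0.122) with the constant of 0.5 FPKM and -1.09 (adjusted p = 0.403) with a constant of 0.1. Tested on the percentage itself, the Gramd1a difference was -4.40 ± 2.60 points (adjusted p = 0.697). Nxn, the thioredoxin-like protein nucleoredoxin, used its distal end at 94.6 ± 0.712% in control and 86.6 ± 10.3% in DSS, again with overlap, and its ends fell from 10.3 ± 4.06 to 3.96 ± 1.41 FPKM.

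Between FGF1 and DSS the 6 smallest p belonged to Tk1, Col6a2, Uba2, Sbf1, Pigv and Hnrnpk. This comparison shares the DSS libraries with the one above. Distal use of Tk1 was 75.6, 57.3, 66.9 and 59.6% in control, 75.1, 73.8, 84.8 and 72.9% in DSS and 49.96, 49.4, 41.5 and 54.3% in FGF1 libraries. The FGF1 libraries lay below all others, at a mean of 48.8 ± 5.31% against 76.7 ± 5.51% in DSS. The FGF1 minus DSS estimate was -1.59 ± 0.297 (SE, adjusted p = 0.195, limma) and the FGF1 minus control estimate -0.94 ± 0.297 (adjusted p = 0.672). The proximal Tk1 end belongs to a retained-intron transcript that ends with AATAAA in the sequence above.

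Uba2, a subunit of the SUMO-activating enzyme, was at 87.9, 81.6, 85.7 and 86.6% distal use in control, 81.2, 80.9, 80.9 and 75.5% in DSS and 89.6, 91.5, 88.9 and 89.0% in FGF1 libraries. The 3 groups did not overlap, with DSS lowest and FGF1 highest, and the FGF1 minus DSS estimate was 1.05 ± 0.216 (SE, adjusted p = 0.195, limma). Hnrnpk, an RNA-binding protein, used mostly its proximal end, and distal use was 8.32 ± 1.96% (SD, n = 4) in the control libraries, 16.7 ± 1.92% with DSS and 7.11 ± 2.53% with FGF1. Both Hnrnpk ends belong to retained-intron transcripts. Sbf1, a pseudophosphatase of the myotubularin family, was at 87.6 ± 3.48% in DSS and 94.2 ± 1.79% in FGF1, and the libraries overlapped. Col6a2, a chain of collagen VI in the fibroblast matrix, was at 80.6 ± 4.46% in DSS and 88.2 ± 3.89% in FGF1, also with overlap. Its ends summed to 30.9 ± 2.47 FPKM in control, 5.28 ± 4.04 in DSS and 14.3 ± 5.91 in FGF1, so its ratio was measured at very different levels.

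Between FGF1 and control the 6 smallest p belonged to Bbs7, 2610301B20Rik, Abtb1, Dlst, Taf1d and Camta2. Bbs7, a subunit of the BBSome of primary cilia, was at 93.4, 92.6, 83.1 and 83.3% distal use in control, 76.5, 93.9, 100 and 68.0% in DSS and 67.2, 41.6, 44.5 and 58.8% in FGF1 libraries. The FGF1 libraries lay below all others, with an estimate against control of -1.71 ± 0.356 (SE, adjusted p = 0.394, limma) at 2.07 ± 0.262 FPKM over its ends. For 2610301B20Rik the estimate was -1.17 ± 0.250 (adjusted p = 0.394), with distal use of 95.3 ± 6.43% in control and 77.0 ± 10.8% in FGF1. Abtb1, a protein with ankyrin and BTB domains, was at 79.8 ± 4.58% in control and 92.7 ± 3.29% in FGF1 without overlap. Camta2, a calmodulin-binding transcription activator, was at 88.3 ± 8.64% and 63.5 ± 14.0%, an estimate of -1.56 ± 0.443 that became -0.76 with all listed transcripts placed.

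Dlst and Taf1d combined steady distal use in the FGF1 libraries with scattered control libraries. Dlst, the E2 subunit of 2-oxoglutarate dehydrogenase, was at 0, 32.7, 0 and 86.3% distal use in control, 97.8, 28.2, 56.6 and 98.8% in DSS and 98.8, 94.3, 98.5 and 98.6% in FGF1 libraries. Its total over the ends barely moved, at 28.3 ± 3.59, 28.1 ± 5.10 and 29.7 ± 1.47 FPKM. The distal Dlst last exon begins next to the end of the proximal one, and the ends are 757 bases apart. Taf1d, a subunit of the RNA polymerase I promoter factor, was at 25.5, 30.9, 92.0 and 31.7% in control, 44.9, 61.2, 83.4 and 34.0% in DSS and 95.5, 97.1, 100 and 92.7% in FGF1. The Taf1d ends summed to 19.7, 20.5, 18.4 and 5.49 FPKM in the FGF1 libraries, so only the share was steady there. The FGF1 minus control estimate of Taf1d was 4.37 ± 1.19 (SE, adjusted p = 0.672, limma), and without control 3 it was 5.73 (adjusted p = 0.0292), which passed the threshold.

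Pairs with a poly(A) hexamer at both ends leaned toward the proximal end in DSS. This split, 1 of 5 sets of pairs looked at, was made with the results in view and is a description without a test. Of the 310 such pairs, 45 (14.5%, against 10.4% of all pairs) had an unadjusted p under 0.05 between DSS and control, and 36 of these had lower and 9 higher distal use in DSS. Over all 1588 pairs lower distal use made up 6.11% and higher 4.28%. In the other 1278 pairs the counts were 61 lower and 59 higher. Groups did not overlap in 33 of the 310 pairs, 24 with lower and 9 with higher distal use in DSS (10.6%, against 5.1% of all pairs), and in the other pairs in 23 with lower and 25 with higher distal use (3.76%). The median estimate was -0.10 in the 310 pairs and 0.01 in the others, and the median change of the genes' own levels was -0.02 and -0.03.

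Between FGF1 and DSS, which shares the DSS libraries, 33 of the 310 pairs (10.6%, against 8% of all) had an unadjusted p under 0.05, 24 with higher and 9 with lower distal use in FGF1, against 4.28% higher and 3.72% lower over all pairs. With end rows alone the counts were 10 higher and 8 lower of 215 pairs, and without FGF1 3 they were 16 higher and 7 lower. Between FGF1 and control there were 24 (7.74%, against 5.86%), 11 higher and 13 lower, against 2.83% and 3.02%. The other sets of pairs were compared between DSS and control in the same way, against the 10.4% of all pairs. Of 430 pairs with both ends coding, 33 were lower and 25 higher (13.5%), a share close to that of the hexamer pairs. Of 598 pairs with a proximal retained intron and a coding distal end, 28 were lower and 18 higher (7.69%). Of 201 pairs with a proximal processed transcript and a coding distal end, 15 were lower and 7 higher (10.9%).

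The lean was small in each library. For each pair the log2 ratio was set against its mean over the 12 libraries, and the median over the 310 pairs was taken per library. It was 0.01, 0.04, 0.02 and 0.05 in control, -0.17, -0.11, -0.06 and -0.004 in DSS and 0.10, 0.004, 0.06 and 0.02 in FGF1 libraries. The DSS libraries were the 4 lowest, although DSS 4 was near 0. On the percentage scale the groups overlapped: median distal use over the 310 pairs was 77.4, 76.8, 76.8 and 79.5% in control, 74.9, 75.7, 79.0 and 76.4% in DSS and 78.2, 76.2, 77.5 and 75.3% in FGF1. In the other 1278 pairs the per-library medians of the log2 ratio were -0.05, -0.11, 0.10 and 0.16 in DSS, so DSS 3 and DSS 4 lay above the control libraries or at their upper end. Without DSS 3 and DSS 4, 30 of the 310 pairs had lower and 5 higher distal use in DSS at an unadjusted p under 0.05. Leaving out 1 library at a time gave 30 to 35 lower and 6 to 13 higher.

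**Figure D4:**
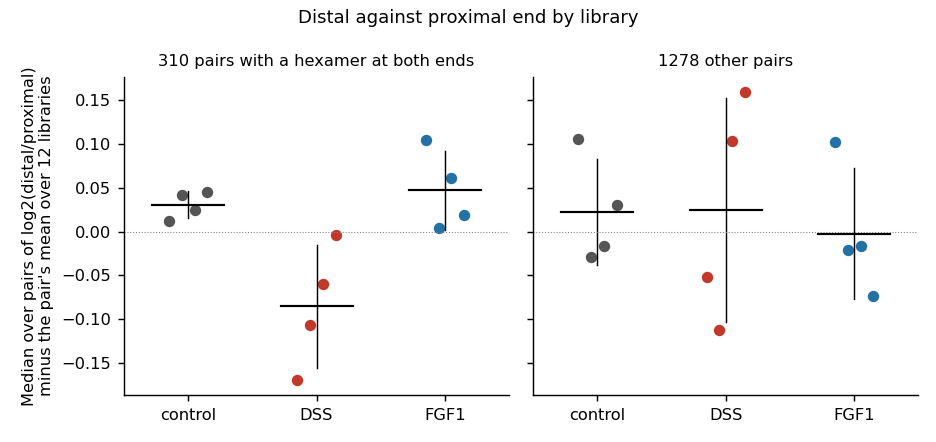
Median over pairs of the log2 distal to proximal ratio minus the pair's mean over 12 libraries, per library, for 310 pairs with a hexamer at both ends (left) and 1278 other pairs (right); horizontal lines are group means and vertical lines ± 1 SD (n = 4 libraries). On the left the 4 DSS libraries lie between -0.17 and -0.004, below the other 8; on the right DSS 3 and DSS 4 are at 0.10 and 0.16.

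The 10 of these pairs with the smallest p between DSS and control, an order fixed by that comparison, were Wdcp, Tcaf1, Gna13, Sin3b, 1500011B03Rik, Nup188, Sh3glb1, Ppp1r2, Zfp235 and Rasl12, and 8 of the 10 had lower distal use in DSS. Both Sin3b ends belong to coding transcripts. Distal use of Sin3b was 48.9, 47.5, 44.4 and 49.1% in control, 30.2, 33.4, 8.79 and 11.3% in DSS and 44.2, 47.7, 53.3 and 38.7% in FGF1 libraries. All DSS libraries lay below all others, and the DSS minus control estimate was -1.90 ± 0.462 (SE, adjusted p = 0.187, limma). The summed level of the Sin3b ends was 19.0 ± 2.42 FPKM in control and 31.8 ± 7.21 in DSS, and its gene level was higher in DSS by 0.63 (log2, adjusted p = 0.03). Nup188, a structural nucleoporin, was at 94.9 ± 5.36% distal use in control, 84.1 ± 3.69% in DSS and 95.2 ± 4.74% in FGF1, with DSS below both other groups in all libraries. The proximal Nup188 end was low, at 0 to 0.382 FPKM in control and 0.533 to 0.824 in DSS. Ppp1r2, inhibitor 2 of protein phosphatase 1, was at 93.6 ± 0.753%, 87.4 ± 1.74% and 90.8 ± 3.03%, without overlap between control and DSS. Zfp235, a zinc finger protein, was at 90.5 ± 14.5%, 60.4 ± 14.6% and 67.2 ± 7.78%, where control and DSS overlapped and FGF1 stayed nearer to DSS.

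Sh3glb1 and Rasl12 went the other way. Distal use of Sh3glb1 was 25.9, 24.0, 15.4 and 17.6% in control, 62.5, 33.0, 37.6 and 56.1% in DSS and 29.7, 47.2, 26.0 and 22.1% in FGF1 libraries. All DSS libraries lay above all control libraries, and the estimate was 1.70 ± 0.444 (SE, adjusted p = 0.207, limma). Rasl12, a small GTPase of the Ras family, was at 51.2 ± 19.3% in control, 89.5 ± 2.36% in DSS and 61.2 ± 24.7% in FGF1, at 2.43 ± 0.726 FPKM over its ends in control. Its DSS libraries lay above all others.

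**Figure D5:**
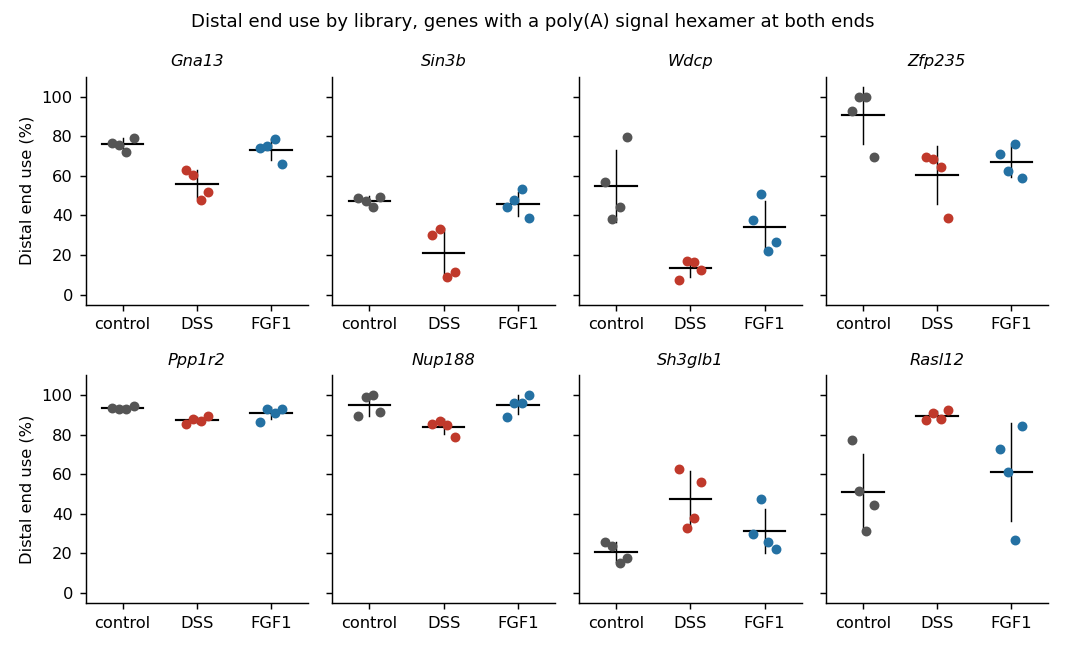
Distal end use (percent of the gene's end FPKM) per library for 8 of the 10 genes with a hexamer at both ends and the smallest p between DSS and control; horizontal lines are means and vertical lines ± 1 SD (n = 4 libraries). DSS lies lower in 6 genes, such as Sin3b at 8.79 to 33.4% against 44.4 to 49.1% in control, and higher in Sh3glb1 and Rasl12.

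Abundant pairs with substantial use of both ends gave no call. The most abundant genes with coding transcripts and hexamers at both ends and a mean distal use between 25 and 75%, chosen after their values were seen, were Rrbp1, Lamp2, Polr1d, Ak6, Pfdn6 and Gna13. Lamp2, a lysosomal membrane protein whose known isoforms differ in their last exon, was at 63.8 ± 3.03% distal use in control, 72.3 ± 5.28% in DSS and 67.5 ± 1.43% in FGF1. The groups overlapped, with an estimate of 0.55 ± 0.225 (SE, adjusted p = 0.393, limma) between DSS and control. Polr1d, a subunit shared by RNA polymerases I and III, was at 39.4 ± 9.53%, 34.3 ± 5.75% and 41.9 ± 12.5%. Ak6, a nuclear adenylate kinase, was at 35.7 ± 7.02%, 30.1 ± 9.20% and 33.3 ± 2.92%. Pfdn6, a prefoldin subunit, was at 65.2 ± 9.07%, 72.4 ± 9.25% and 72.4 ± 9.50%. In Polr1d, Ak6 and Pfdn6 each difference between group means was within the spread of the libraries.

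A list of 24 genes with textbook alternative last exons gave few tested pairs. Tpm1, Cstf3, Egfr, Pdgfra, Rbbp6, Nrp1, Ank3 and Il6st were listed with 1 end pattern, and the patterns of Tpm2, Fgfr2, Lmna and Cxcl12 merged into 1 region. Tpm3, Flt1, Kdr, Calca, Fgfr1, Il1rap and Lepr did not reach 1 FPKM over their ends in every library. In Cdc42, a GTPase known for a widespread and a brain form with different last exons, the lesser end took 3.53% and missed the minimum. Pcf11, Ighm and Tmpo and 1 gene on chromosome 18 were tested, and 0 of these 4 were called or had an unadjusted p under 0.05 in any comparison (limma).

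The membrane form of Ighm, its distal end, averaged 51.1% over the 12 libraries but ranged from 29.1 to 71.8%. It was 29.1, 55.5, 50.1 and 36.7% in control, 64.4, 45.6, 49.5 and 63.1% in DSS and 56.0, 38.9, 52.9 and 71.8% in FGF1 libraries. The groups overlapped, and the DSS minus control estimate was 0.60 ± 0.386 (SE, 95% interval -0.24 to 1.44, adjusted p = 0.601, limma). Its ends summed to 7.31 ± 1.38 FPKM in control, 3.45 ± 1.92 in DSS and 3.01 ± 0.770 in FGF1, and the gene level was lower in DSS by 1.01 (log2, adjusted p = 0.0461). Of the plasma and B cell markers, 3 of 4 tested were lower in DSS as well, with mean log2(FPKM + 1) of 2.85 to 3.53 in control and 1.40 to 1.80 in DSS.

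Tmpo used the proximal end of the alpha form at a mean of 29.7% and the distal end at 65.5%. Distal use was 64.9 ± 4.33% in control, 65.5 ± 2.99% in DSS and 65.9 ± 2.57% in FGF1. The 95% interval of its DSS minus control log2 ratio ran from -0.52 to 0.42. Pcf11, a cleavage factor that binds RNA polymerase II and has an intronic proximal end of its own, was at 91.2, 94.2, 91.7 and 92.1% distal use in control, 89.0, 85.5, 88.9 and 89.96% in DSS and 93.9, 94.1, 86.4 and 93.8% in FGF1 libraries. Control and DSS did not overlap, with a mean difference of -3.95 points and a log2 ratio estimate of -0.37 ± 0.259 (SE, adjusted p = 0.649, limma). The proximal Pcf11 transcript is annotated as a retained intron.

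Few genes of the 3' end machinery passed the test at gene level. Of 36 genes on the list, 34 were listed and tested at gene level, and Symplk and Cstf2t had no listed transcript. Between DSS and control 1 of 34 was called, against 12.3% of all genes, and 2 had an unadjusted p under 0.05. Between FGF1 and DSS 0 were called and 0 had an unadjusted p under 0.05 (12.4% of all genes), and between FGF1 and control 0 and 1 (13.9%). The median difference of the list was 0.05, -0.01 and -0.02 on the log2 scale in the 3 comparisons, against -0.07, 0.05 and -0.04 over all genes. The called gene was Celf2, an RNA-binding protein of splicing and 3' end choice that is also found in immune and muscle cells. It stood at 1.61, 2.03, 2.12 and 1.64 FPKM in control, 0.433, 0.775, 0.996 and 0.550 in DSS and 0.460, 1.07, 1.06 and 1.05 in FGF1 libraries. All DSS libraries lay below all control libraries, a difference of -0.76 ± 0.159 in log2(FPKM + 1) (SE, adjusted p = 0.0115, limma). At such low levels the added 1 FPKM makes the difference smaller than that of the FPKM alone. Over 16 alternatives the Celf2 estimate ran from -1.35 to -0.69.

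None of the core factors passed the test. Cpsf1, a subunit of CPSF, was at 18.7 ± 1.61 FPKM (SD, n = 4) in the control libraries, 18.2 ± 0.837 with DSS and 16.9 ± 1.09 with FGF1. Wdr33, the CPSF subunit that contacts the hexamer, was at 10.7 ± 0.767, 11.2 ± 0.886 and 10.4 ± 0.432. Cstf2, the RNA-binding subunit of CstF, was at 8.72 ± 1.39, 9.91 ± 2.51 and 8.48 ± 1.32, and in DSS it ranged from 7.04 to 13.1. Nudt21, the cleavage factor I subunit that favours distal sites in many cells, was at 8.89 ± 0.718, 10.7 ± 2.57 and 9.96 ± 1.14, a DSS minus control difference of 0.23 ± 0.146 (log2, SE, adjusted p = 0.355, limma). Its partner Cpsf6 was at 12.8 ± 1.47, 12.6 ± 1.15 and 12.6 ± 0.503. Pabpn1, the nuclear poly(A)-binding protein, was at 53.0 ± 12.8, 51.3 ± 11.4 and 46.5 ± 5.24. Mbnl1 and Mbnl2, RNA-binding proteins that act on splicing and 3' ends, were at 8.24 ± 2.37 and 16.6 ± 2.92 in control and 4.64 ± 2.16 and 11.8 ± 3.78 in DSS, and neither passed the test (adjusted p = 0.239 and 0.151).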

How the data were processed

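RNA from mouse colon was sequenced in 12 libraries, 4 each labelled control, DSS and FGF1. Poly(A) RNA was captured on oligo(dT) beads from 5 µg, per the labels' protocols. The submitters' processing notes name build GRCm38 and 4 tools without roles: HISAT2 2.0.4, StringTie 1.3.4d, cutadapt 1.9 and edgeR. Per the file headers, the deposited table gives each event's transcript with its FPKM in each library, as the authors computed it. The depth is unknown because no counts are held.

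An end row is listed at 0 in a library that lacks it, also where its transcript has FPKM in another row of that library. This applied to 44319 of 357332 values above 0 (12.4%), so a transcript's FPKM was taken from any of its rows, and rows alone were an alternative. The end transcripts held 76.8 to 78.3% of the FPKM listed for the member genes. The log2 distal to proximal ratio, the log2 ratio of each site to the gene's other ends and log2(gene FPKM + 1) were fitted with limma 3.58.1 in R 4.3.3. Both ratios had a constant of 0.5 FPKM. The fits used a mean-variance trend over all 12 libraries, with Benjamini-Hochberg adjustment over all rows of each fit. The gene fit took genes with at least 1 FPKM in at least 4 libraries. The script was tested on simulated data. Annotation and sequences came from GENCODE vM21 on GRCm38, which named 22330 of 22377 gene identifiers.

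The members, gene lists and tests were chosen with earlier results of these data known. The naming rule took the 6 genes with the smallest p in each comparison when fewer were called. It also took the tested genes of the textbook list and the called genes of the 3' end list. Other genes were named outside this rule, among them the abundant, variable, balanced coding and hexamer pairs and uncalled genes of the 3' end list. Genes on chromosome 18 or without a symbol were counted but not named. Same-numbered libraries did not deviate together, so no pairing was used. The result for 1 abundant gene is not reported here.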

Additional observations from a re-analysis of the deposited data

Results flagged for a closer look

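In groups of 4 libraries, a value far from the other 3 was looked for with Dixon's gap test at the 95% level in 126 sets of values. Chance gives such a gap in about 1 in 20 sets that were not selected, and 11 were found. The sets include genes chosen for a large within-group SD, Srebf1 and Alas1 among them, so the 11 cannot be read as an excess over chance. For distal end use, the separate library stood at 86.6% for Abtb1 in control, where the others lay between 77.0 and 78.0%. Alas1 reached 94.6% in control (others 26.6 to 35.7%) and 98.0% in DSS (others 30.9 to 36.6%). Dlst fell to 94.3% in FGF1 (others 98.5 to 98.8%) and Pcf11 to 86.4% in FGF1 (others 93.8 to 94.1%). Srebf1 was at 0% in 1 control library (others 66.4 to 77.8%) and in 1 FGF1 library (others 63.7 to 73.1%). Taf1d reached 92.0% in control (others 25.5 to 31.7%), Uba2 fell to 75.5% in DSS (others 80.9 to 81.2%) and Zfp235 to 38.7% in DSS (others 64.6 to 69.7%). Celf2 stood at 0.460 FPKM in 1 FGF1 library (others 1.05 to 1.07).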

How the results depend on the processing

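The count of end pairs called was 0 in each comparison, and the alternatives that changed it were these, the cause not being tested. Between DSS and control it was 2 with no filter on low values, 14 with no minimum use, 1 with the replicate number as a block (Rbm6) and 3 without DSS 3 and DSS 4. Between FGF1 and DSS it was 2 without DSS 3 and DSS 4, and between FGF1 and control 1 with no filter. Leaving out 1 library gave 0 to 0 calls between DSS and control, 0 to 1 between FGF1 and DSS and 0 to 1 between FGF1 and control. Pigv was called between DSS and control with no minimum use (adjusted p = 0.0374) and without DSS 3 and DSS 4 (0.04), and Gramd1a with no minimum use (0.0434). The other genes called with no minimum use were not among the 1588 tested pairs, and 2 of the 14 calls were higher in DSS. Col3a1 and C1qc were among the 14, with gene-level differences of -3.06 and -2.06 (log2), while that of Pigv was 0.11. The part of gene level in these calls was not tested. For single end sites the count between DSS and control was 1 with a constant of 0.1, 2 with 1, 1 on a linear scale, 1 with no filter, 26 with no minimum use, 5 with only the compared groups and 2 without DSS 3 and DSS 4. Between FGF1 and DSS it was 1 with no minimum use, 2 without DSS 3 and DSS 4 and 1 without control 3 and FGF1 3. Between FGF1 and control it was 1 with a constant of 0.1, 1 on a linear scale and 1 with no filter. Leaving out 1 library gave 0 to 2 site calls in each comparison. At gene level the replicate block gave 1028 calls between DSS and control, 2 between FGF1 and DSS and 1 between FGF1 and control. Median-of-ratios scaling gave 17 and 16 in the latter comparisons, and FGF1 against control gave 0 with a constant of 0.1 and 50 with no filter. Leaving out 1 library gave 692 to 1998, 0 to 43 and 1 to 83 calls. The block is a bare number here: only 1 of 12 libraries correlated best with its own number.

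Small estimates changed sign. Pcf11 between FGF1 and control was -0.242 points on a linear scale and -0.0601 to 0.298 with 1 library left out. Ighm between FGF1 and DSS was 0.00157 with a constant of 1, 0.0288 without control 3 and FGF1 3, and -0.251 to 0.228 with 1 library left out. Tmpo between DSS and control was 0.586 points on a linear scale, 0.0505 with end patterns kept apart, 0.032 for the most distal end against all others and -0.11 to 0.0521 with 1 library left out. Tmpo between FGF1 and control was -0.0351 with all listed transcripts placed and -0.0434 to 0.141 with 1 library left out. The pairs with the 6 smallest p in a comparison kept their sign in that comparison on the log2 scale. Pigv was at -3.15 to -1.02 and Wdcp at -2.65 to -1.11 between DSS and control. Not all other named pairs did so. With all listed transcripts placed, Hnrnpa2b1 between DSS and control went from -0.18 to 0.49, and Yif1a from -0.56 to 0.29. In the 310 pairs with a hexamer at both ends, lower outnumbered higher distal use in DSS under all 29 alternatives. The counts were 22 to 7 with end rows alone and 16 to 5 at 5 FPKM or more. The alternatives reuse the libraries and pairs in which this split was first seen, so they are no test of it. The FPKM come without counts, so the size of their counting error is unknown. Most end patterns (80.9%) are read through 1 transcript model, and ends that differ only within a last exon were not separated.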
